A study of Rattus norvegicus with 14 samples.

Results

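Testis and ovary of the fetal rat were compared at embryonic day 13 (E13), the earliest of the 3 ages in a study of gonadal sex differentiation. The comparison takes the 4 of 14 arrays that carried fresh E13 gonads, 2 of testis and 2 of ovary, and every probe set that was not an Affymetrix control, which left 15866 of 15923. Each probe set consists of several short oligonucleotides that together read a transcript, or several like ones, and its value is an intensity on a linear scale. The other 10 arrays held E14 testis, E14 ovary, E16 testis, E16 ovary and E13 testis kept for 3 days in organ culture, with 2 arrays in each group. Each array carried RNA of 20 to 40 pooled gonads, and the 2 pools of a group were independent. The E13 gonads compared here were fresh, and no treatment is named for them. The sources used here do not give the strain, the way in which the gonads were sexed, or how much mesonephros stayed attached. Whole gonads were measured, so fewer cells of a type and less RNA per cell cannot be told apart.

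In mammals the gonad begins as a bipotential ridge that forms on the mesonephros in both sexes. In the XY gonad the Y-linked transcription factor Sry acts for a short time in supporting cells, which become Sertoli cells and go on to make anti-Müllerian hormone (Amh) and the growth factor Fgf9. In the XX gonad WNT signalling through Wnt4, together with Bmp2 and the activin-binding protein follistatin (Fst), belongs to the ovarian programme. Steroid-making fetal Leydig cells appear in the testis after the Sertoli cells.

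The 4 arrays were alike in overall signal, with median intensities between 63.4 and 69.1. The ratio of 3′ to 5′ actin signal, a gauge of RNA quality, was 1.475 and 1.94 in testis and 2.13 and 1.62 in ovary. Markers of the gonadal ridge were present in each of them. Wt1, a transcription factor needed for the ridge to form, read 838.7 and 863.2 in testis and 827.6 and 1032.0 in ovary. Emx2, a homeobox factor also needed there, read 297.4 and 319.2 in testis and 318.3 and 334.9 in ovary. The 2 testis pools differed from each other as much as they differed from the ovaries. Between the testis arrays 578 probe sets (3.64%) were at least 2-fold apart, against 137 (0.864%) between the ovary arrays and 411 to 603 (2.59% to 3.80%) in the 4 pairs of a testis with an ovary array. Xist, which is made from the inactive X chromosome of female cells, was at odds with the sex label in some arrays. It read 269.2 in an array labelled E14 testis and 151.1 in one labelled cultured E13 testis, and 12.8 in an array labelled E16 ovary. Of the arrays compared here, the one labelled E13 testis replicate 1 was raised, at 36.2 against 1.9 in replicate 2. The groups are called testis and ovary by their labels throughout. Leaving these 4 arrays out leaves replicate 2 as the only E13 testis array. A fit without them therefore cannot tell the Xist levels from the loss of an array. By the form of the array labels, testis replicate 1 shared a chip period with both ovary arrays and testis replicate 2 belonged to another period. The difference of each testis array from the ovary mean is therefore given beside the results that matter most.

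Sry was higher in testis and Angel2 was lower, and these were the only 2 of 15866 probe sets (0.0126%) that passed an adjusted p of 0.05 in limma's moderated test. Sry read 162.8 and 184.9 in the testis arrays and 20.1 and 28.7 in the ovary arrays. The groups were far apart, at a mean of 174 ± 15.6 against 24.4 ± 6.08 (SD, n = 2 each). On the log2(intensity + 16) scale, used for every log2 difference here, testis exceeded ovary by 2.24 ± 0.24 (SE), with a 95% interval of 1.72 to 2.76 and an adjusted p of 0.0159 in limma. Testis replicate 1 lay 2.15 above the ovary mean and replicate 2 lay 2.32 above it. Sry passed with chip period as a block, at an adjusted p of 0.041, and did not pass with an offset of 1 in place of 16 (adjusted p = 0.092). No other array of the series reached the E13 testis level of Sry. The highest of the other 12 was 45.9, in an E14 testis array, and the log2 difference between the sexes was 0.74 at E14 and 0.12 at E16. The RefSeq gene table used for names lists 8 rat genes called Sry, and the probe set cannot tell such copies apart.

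Angel2, which encodes a protein of the CCR4/nocturnin family, read 7.2 and 8.3 in the E13 testes and 65.3 and 73.9 in the E13 ovaries. The log2 difference was -1.85 ± 0.21 (SE), with a 95% interval of -2.30 to -1.39 and an adjusted p of 0.0159 in limma. It was -1.88 for testis replicate 1 and -1.81 for replicate 2. With chip period as a block Angel2 did not pass (-1.77, adjusted p = 0.0615 in limma), nor did it with an offset of 64 (adjusted p = 0.25). The low readings were seen in the fresh E13 testes alone. Over the other 12 arrays Angel2 lay between 47.9 and 91.3, and the 2 arrays of cultured E13 testis read 66.4 and 69.8. At E14 the log2 difference was 0.28 and did not pass. Neither Sry nor Angel2 passed when only the 4 E13 arrays were fitted (adjusted p = 0.196 for both in limma), nor when any 1 of the 4 was left out.

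**Figure D1:**
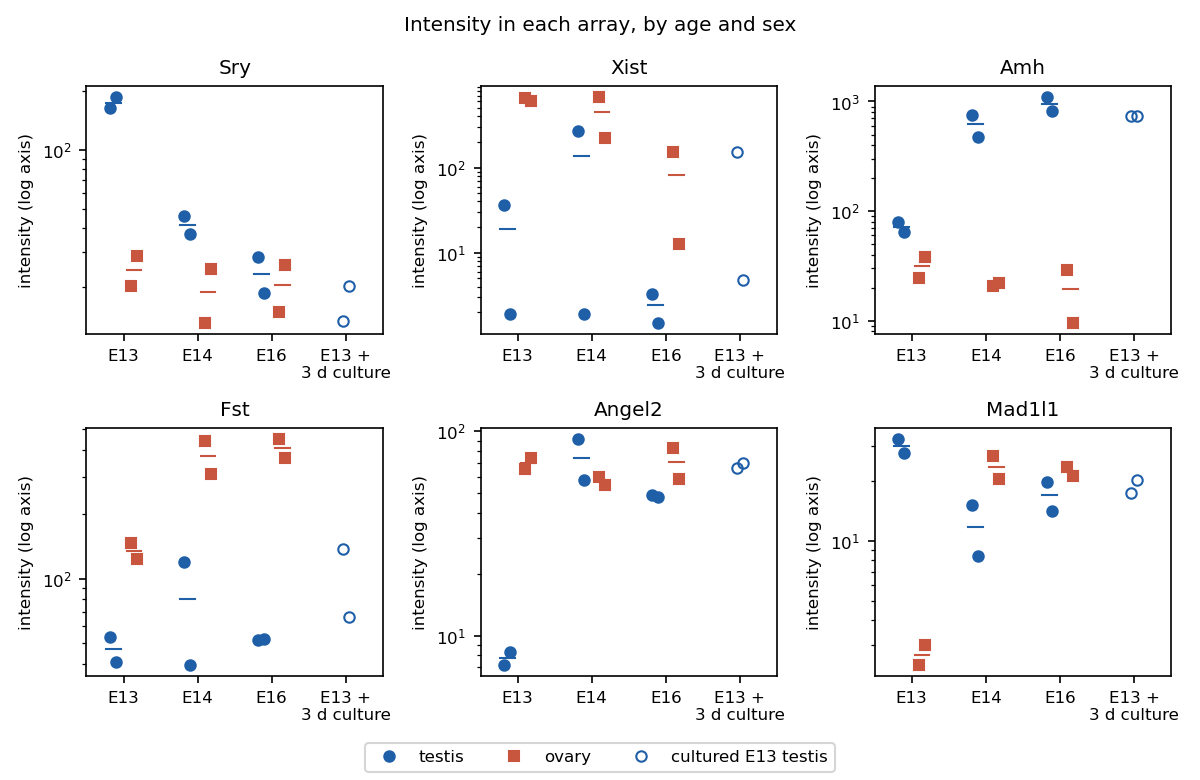
Deposited intensity (log axis) of 6 genes in each of the 14 arrays, with testis as blue circles, ovary as red squares, cultured E13 testis as open circles, and the mean of each fresh group as a short line (n = 2 each). Sry is at 162.8 and 184.9 in the E13 testes and at 45.9 or less elsewhere, Angel2 is at 7.2 and 8.3 in the E13 testes and at 47.9 or more elsewhere, and Amh at E13 lies below its level in every later testis array.

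Xist, the non-coding RNA that coats the inactive X chromosome, had the largest difference in size of any probe set. It read 36.2 and 1.9 in the testes and 662.2 and 602.6 in the ovaries. The groups did not overlap, and the log2 difference was -4.41 (95% interval -7.22 to -1.59), but the adjusted p was 0.485 in limma. The fit shares the spread of Xist at the other ages, where it read 269.2 and 1.9 in the E14 testes and 151.7 and 12.8 in the E16 ovaries. With the 4 E13 arrays alone the adjusted p for Xist was 0.223. What part the raised level in testis replicate 1 had in other differences was not tested. An unnamed probe set, 1375535_at, chosen after its values were seen, read 106.5 and 49.2 in testis and 1155.9 and 1225.6 in ovary. Its log2 difference was -3.75, with an adjusted p of 0.541 in limma. In arrays where Xist was at odds with the label, it read 521.8 (E14 testis), 303.8 (cultured E13 testis) and 47.5 (E16 ovary).

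Of 16 sex-linked symbols 7 were measured. Apart from Sry and Xist, the X-linked translation factor gene Eif2s3 read 232.2 and 205.6 in testis and 295.0 and 328.9 in ovary, a log2 difference of -0.48 that did not pass. Ddx3x, an X-linked RNA helicase, read 1225.0 and 1411.6 against 1600.1 and 1670.9, a difference of -0.31. Kdm5c, an X-linked histone demethylase, differed by -0.17, and Usp9x, whose arrays overlapped, by 0.04. Tsx, an X-linked gene named for its testis expression, read 76.1 and 42.0 in testis and 16.5 and 23.9 in ovary. Its log2 difference of 1.02 (95% interval 0.27 to 1.78) did not pass at E13 and was 2.89 at E14 and 4.02 at E16, where it passed.

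None of the 42 measured genes of the testis pathway passed the adjusted threshold. The pattern in the unadjusted values was mixed. At an unadjusted p under 0.05 in limma, 8 members were higher in testis and 4 lower, where 4.19% and 2.93% of all 10411 genes with a probe set were. The arrays did not overlap, with testis higher, for 19 members (25.5% of all genes), and with testis lower for 11 (20.9% of all genes). The median log2 difference of the list was 0.15, against 0.02 over all genes.

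Amh, which Sertoli cells secrete to make the Müllerian ducts regress, read 79.5 and 63.9 in testis and 24.5 and 38.5 in ovary. The lower testis array lay above the higher ovary array, and the log2 difference was 0.89 ± 0.30 (SE), with a 95% interval of 0.24 to 1.55. It was 1.02 for testis replicate 1 and 0.77 for replicate 2, and the adjusted p was 0.516 in limma. The same difference was 4.05 at E14 and 4.82 at E16, both of which passed. The Amh promoter is shown because it carries letters of the binding motifs of 2 factors of the early gonad. These are the 250 bases before the gene's start in RefSeq, build GRCr8, chr7:9559868-9560117, minus strand, 5′ to 3′. Capitals mark AAGGTCA, the motif type bound by the nuclear receptor Nr5a1, at 84 to 78 bases before the start, and TGATAG, the type bound by GATA factors, at 67 to 62 bases before it.
Amh: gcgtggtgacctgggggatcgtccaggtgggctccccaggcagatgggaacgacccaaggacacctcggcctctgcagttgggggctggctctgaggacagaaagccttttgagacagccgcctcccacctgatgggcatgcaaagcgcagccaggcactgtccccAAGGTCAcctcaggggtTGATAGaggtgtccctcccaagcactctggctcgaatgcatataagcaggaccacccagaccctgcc
Both strands were searched, and among 33469 rat promoter windows AAGGTCA was found in 3.99% and TGATAG in 6.38%. AACAAT, a spelling of an SRY or SOX site, occurred in 10.3% of the windows and was not among the letters of this one. Only this exact spelling was searched, so SRY or SOX sites with other letters were not looked for. The factors themselves were measured. Nr5a1 read 15.3 and 42.0 in testis and 12.3 and 7.5 in ovary, and Gata4 read 389.3 and 332.8 in testis and 420.4 and 487.7 in ovary. Neither passed, with log2 differences of 0.72 and -0.32. The second Gata4 probe set pointed the other way, at 136.1 and 128.2 in testis and 65.7 and 83.1 in ovary (0.72).

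Among ligands of the testis pathway, Fgf9 read 70.1 and 59.7 in testis and 47.2 and 35.4 in ovary, a log2 difference of 0.50 (95% interval 0.04 to 0.97). Nrg1, a neuregulin that signals through ERBB receptors, read 79.4 and 76.8 in testis and 35.4 and 33.7 in ovary. The difference was 0.90, but Nrg1 has 8 probe sets with differences from -0.42 to 0.90. Ntf3, a neurotrophin, lay the other way, at 26.6 and 17.9 in testis and 40.4 and 35.8 in ovary, a difference of -0.51. Pdgfa read 100.7 and 78.1 against 88.5 and 92.6, with overlap between the sexes.

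Among the receptors, Fgfr2, which binds FGF9, read 257.5 and 254.4 in testis and 410.9 and 403.1 in ovary, a log2 difference of -0.64 (95% interval -1.11 to -0.16). The 2 readings of each sex were close together for this brightest probe set, while the other 4 probe sets of Fgfr2 differed by -0.03 to 0.46. Amhr2, the receptor for Amh, read 437.0 and 477.0 in testis and 592.1 and 562.6 in ovary, a difference of -0.33 that reached -1.64 at E14. Erbb3 read 22.3 and 5.4 against 40.7 and 24.2 (-0.74), and Erbb2 overlapped (-0.12). Ngfr read 42.6 and 45.3 in testis and 48.1 and 44.1 in ovary, a difference of -0.05. No receptor in the list passed.

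Proteins of the supporting cell's structure and secretions were also on the list. Krt18, an epithelial keratin, read 139.1 and 108.9 in testis and 80.9 and 76.0 in ovary, a log2 difference of 0.56. Serpine2, a protease inhibitor, read 161.1 and 152.0 against 106.1 and 87.1 (0.62), and Cst8, a cystatin, read 61.4 and 71.0 against 33.4 and 37.0 (0.68). These 3 had testis above ovary in all 4 pairs of arrays. Cldn11, a tight-junction protein of mature Sertoli cells, read 150.4 and 119.0 in testis and 245.0 and 211.8 in ovary (-0.70), and its second probe set gave -0.17. Inhibin alpha, Inha, was 148.8 and 114.7 in testis and 99.9 and 113.9 in ovary (0.26), and Aard read 289.7 and 226.2 against 207.0 and 193.3 (0.33). Both Inha and Aard passed with higher values in testis at E16, where their log2 differences were 1.93 and 1.54. Dmrt1 overlapped between the sexes at 39.6 and 58.9 against 41.7 and 49.0.

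The list also held kinases and Gadd45 factors of the kind that act upstream of Sry in the mouse. Map3k1 read 442.0 and 355.5 in testis and 528.4 and 449.6 in ovary (-0.29), and a second probe set of it gave 0.25. Gadd45g read 113.1 and 58.5 against 122.8 and 132.7, and Gadd45a, on the other side, read 111.1 and 84.3 against 68.0 and 73.5 (0.38). Gadd45b overlapped (-0.04). Map2k6 (-0.41), Mapk14 (-0.55) and Gadd45g (-0.55) each had lower readings in testis, and Mapk11 (0.51) had higher ones at low intensity. None of these passed.

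In the ovary pathway 0 of 23 measured genes passed limma's adjusted threshold. At an unadjusted p under 0.05, 3 were lower in testis (Fst, Bmp2 and Inhba) and 0 higher, against 2.93% and 4.19% of all genes. Arrays without overlap put testis lower for 10 of the 23, against 20.9% of all genes, and higher for 3, against 25.5%. The median log2 difference was -0.19. Fst, which binds activin, read 53.0 and 40.8 in testis and 146.3 and 123.1 in ovary, or 2.87 times as much in ovary by the means. The log2 difference was -1.26 ± 0.39 (SE), with a 95% interval of -2.12 to -0.41 and an adjusted p of 0.497 in limma. The second Fst probe set gave -1.29. Bmp2, a signalling ligand, read 78.9 and 70.2 in testis and 148.4 and 149.3 in ovary, a difference of -0.87 (95% interval -1.39 to -0.34), and its second probe set gave -1.02.

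Wnt4, the ovarian WNT ligand, read 79.0 and 53.8 in testis and 131.7 and 149.6 in ovary. Its difference of -0.94 had an interval from -2.38 to 0.50, and the fit shares the spread at other ages, where Wnt4 read 355.9 and 88.6 in the E14 ovaries. Lef1, a nuclear effector of WNT signals, read 159.6 and 120.8 against 217.7 and 228.3 (-0.62). Axin1, a scaffold of the complex that degrades beta-catenin, read 162.5 and 182.5 against 195.5 and 219.4 (-0.25). Ctnnb1, which encodes beta-catenin, differed by 0.11, Axin2 by -0.19, Tcf7 by -0.03 and Nkd1 by 0.50, none of which passed. The other probe sets of Ctnnb1 gave 0.03 to 1.02, and that of Nkd1 gave -0.06. Inhba, the activin A subunit, read 11.1 and 20.3 in testis and 31.2 and 32.9 in ovary (-0.62), and Lgr5, an R-spondin receptor, read 51.5 and 55.9 against 62.5 and 83.5 (-0.34).

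**Figure D2:**
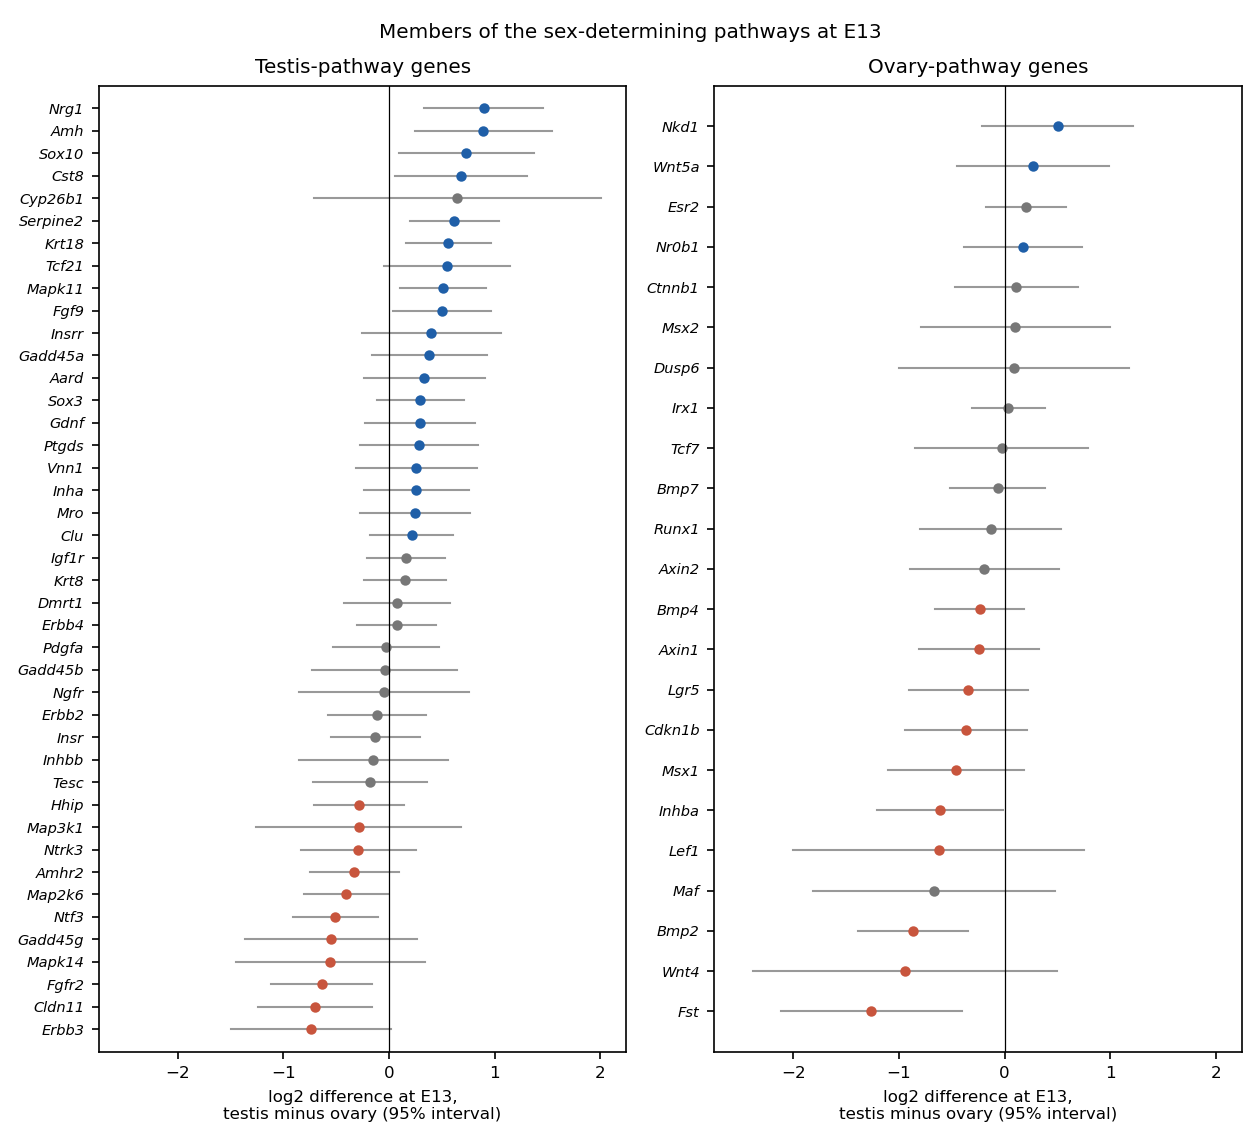
Log2 difference at E13 (testis minus ovary, x axis) of every measured member of the testis-pathway list (42 genes) and the ovary-pathway list (23 genes), with 95% intervals from limma. Blue points have both testis arrays above both ovary arrays, red points the reverse, and grey points overlap; the points run from -0.74 (Erbb3) to 0.90 (Nrg1) and from -1.26 (Fst) to 0.50 (Nkd1).

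Of 15 measured transcription factors and other early genes of the gonad, 1 was higher at an unadjusted p under 0.05 and 0 were lower, against 4.19% and 2.93% of all genes. The arrays did not overlap for 5 with testis higher (25.5% of all genes) and 4 with testis lower (20.9% of all genes). The median log2 difference was -0.09. The higher gene was Hes1, a target of Notch signals, with 163.4 and 132.2 in testis and 91.2 and 117.4 in ovary (0.45). Tcf21, which restrains steroidogenic fate in the gonad, read 654.3 and 508.2 against 324.3 and 467.5, a difference of 0.55 at E13 and 1.69 at E14. For Wt1 the difference was -0.12 and for Emx2 it was -0.08. Gata6 overlapped, at 183.0 and 146.2 in testis and 152.8 and 251.1 in ovary.

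Of 13 measured Leydig cell genes, 1 was higher at an unadjusted p under 0.05 and 0 were lower, where 4.19% and 2.93% of all genes were. The arrays did not overlap for 6 with testis higher (25.5% of all genes) and for 1 with testis lower (20.9% of all genes). The gene with the unadjusted p under 0.05 was Hsd3b1, a steroid dehydrogenase, with 36.1 and 33.0 in testis and 8.2 and 2.4 in ovary, a log2 difference of 1.26 that did not pass. Near-identical members of the Hsd3b family may share its probes. Star, the cholesterol carrier of steroid-making cells, read 45.0 and 30.3 in testis and 60.8 and 70.9 in ovary (-0.62). Cyp17a1 read 15.5 and 2.3 against 9.9 and 13.1 (-0.19). Hsd3b1, Star and Cyp17a1 all passed with higher values in testis at E16.

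In the list for interstitial and stromal cells, 1 of 28 measured genes was higher at an unadjusted p under 0.05 and 0 were lower, a share near that of all genes (4.19% and 2.93%). Acta2, smooth muscle actin, read 214.5 and 191.1 in testis and 135.4 and 106.7 in ovary (0.68). Jag1, a Notch ligand, read 28.2 and 13.1 against 44.0 and 29.3 (-0.54). Only 9 of 25 germ cell symbols were measured. Their median was -0.28, and 0 had an unadjusted p under 0.05 in limma. Kitlg, the ligand that germ cells need for survival, read 199.8 and 283.1 in testis and 320.9 and 309.7 in ovary (-0.38). Another Kitlg probe set pointed the other way, at 85.6 and 82.2 against 31.6 and 55.4 (0.78). The receptor of Kitlg, Kit, read 45.0 and 13.2 in testis and 25.7 and 60.3 in ovary.

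Growth factors outside these pathways included Fgf10, a ligand made by mesenchyme, with 49.6 and 55.5 in testis and 7.4 and 20.9 in ovary, a log2 difference of 1.22 (adjusted p = 0.481 in limma). Nppc, the precursor of C-type natriuretic peptide, read 55.1 and 35.4 against 29.8 and 24.4 (0.49). Tgfb2 read 49.4 and 71.2 in testis and 109.2 and 89.6 in ovary (-0.61). Its second probe set gave 0.25. Of the 33 measured members, 2 were higher and 1 lower at an unadjusted p under 0.05, against 4.19% and 2.93% of all genes. In the list for matrix and basement membrane, 1 of 22 was higher and 0 were lower. Itga6, an integrin chain that binds laminin, read 121.2 and 101.4 in testis and 51.2 and 52.0 in ovary (0.91, 95% interval 0.44 to 1.38), while its second probe set gave -0.05.

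The measured genes of cell growth and energy were 27 of the cell cycle, 23 of glycolysis and hypoxia, 15 of cholesterol synthesis and 12 ribosomal protein genes. Of these, 0 had an unadjusted p under 0.05 in either direction in limma, and 0 passed the adjusted threshold. Over all genes 4.19% were higher and 2.93% lower at that unadjusted p. Aurkb, a mitotic kinase, read 188.0 and 193.5 in testis and 122.4 and 133.9 in ovary (0.52). Hk1, a hexokinase, read 165.1 and 122.7 against 221.3 and 257.6 (-0.69). Ribosomal protein genes had a median difference of 0.10. Among 20 stress and immediate early genes, Junb read 44.2 and 62.6 in testis and 23.9 and 14.4 in ovary (0.98), and Ddit3 read 21.6 and 45.1 against 53.7 and 56.5 (-0.57). Of the 20, 1 was higher and 1 lower at an unadjusted p under 0.05 in limma, against 4.19% and 2.93% of all genes. Without overlap, testis lay above ovary for 10 (25.5% of all genes) and below it for 3 (20.9%), and the median was 0.23.

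**Figure D3:**
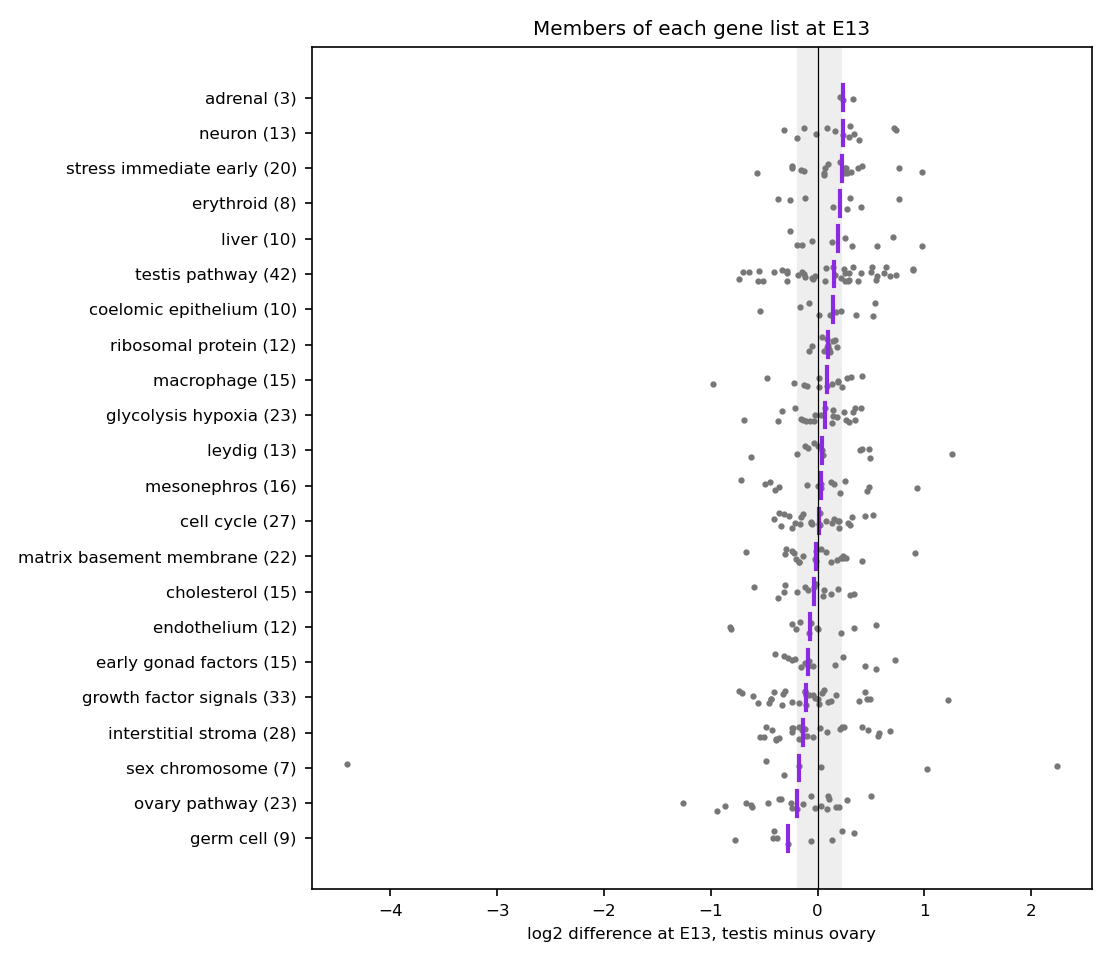
Log2 difference at E13 (testis minus ovary, x axis) of each measured member of the 22 gene lists, with the number measured in brackets, the list median as a violet bar, and the middle 50% of 10411 genes (-0.18 to 0.22) as the grey band. Medians run from -0.28 (germ cell) to 0.24 (adrenal), and Sry at 2.24 and Xist at -4.41 are the outermost points.

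Markers of neighbouring tissues were measured in the same arrays. Their part in the differences above was not tested. At an unadjusted p under 0.05, where 4.19% of all genes were higher and 2.93% lower, testis was higher for 2 of 16 measured mesonephros genes, 2 of 13 neuron genes, 2 of 10 liver genes, 1 of 10 genes of the coelomic epithelium and 1 of 8 erythroid genes, and lower for none of these. Macrophage genes gave 1 higher and 2 lower of 15, endothelial genes 1 lower of 12, and the 3 adrenal genes 0. Lhx1, a factor of mesonephric and kidney tubules, read 76.9 and 37.5 in testis and 18.0 and 24.3 in ovary (0.93), with testis replicate 1 at 1.33 and replicate 2 at 0.53 above the ovary mean. The 4 measured defining markers of mesonephros summed to 171.9 and 122.7 in testis and 87.0 and 103.2 in ovary. Pax8, Cdh16 and Cdh6 differed by 0.16, 0.12 and 0.21. Over all 16 measured mesonephros genes the sums overlapped, at 752.8 and 611.4 in testis and 731.7 and 674.4 in ovary. The log2 differences of that list ran from -0.71 (Cdh1) to 0.93 (Lhx1), with a median of 0.03. For neurons the 5 markers summed to 155.1 and 178.9 in testis and 131.3 and 97.8 in ovary. Th, the enzyme of catecholamine synthesis, read 57.3 and 63.8 in testis against an ovary mean of 30.5 (0.72). Tubb3, Snap25, Stmn2 and Gap43 differed by 0.39, 0.30, 0.09 and -0.13. Over all 13 measured neuron genes the sums overlapped, at 680.5 and 586.1 in testis and 603.1 and 511.7 in ovary.

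The 6 macrophage markers summed to 218.3 and 261.3 in testis and 303.0 and 240.2 in ovary, with overlap. C1qa, a complement chain, read 11.8 and 12.4 in testis and 55.8 and 26.8 in ovary (-0.98), while C1qb differed by 0.14. Sums overlapped between the sexes for the 3 endothelial markers (365.9 and 295.0 against 414.1 and 327.7), the 3 erythroid markers (194.8 and 267.5 against 264.8 and 255.5) and the 4 liver markers (173.1 and 89.5 against 90.5 and 137.7). The 2 adrenal markers summed to 49.6 and 29.7 against 34.7 and 23.1. Slc4a1, the red cell anion exchanger, read 123.4 and 107.6 in testis and 64.1 and 58.9 in ovary (0.76), with -0.19 for its second probe set, whereas Alas2, the haem enzyme of red cells, differed by -0.25. No defining marker was listed at 0, and Apoa1 and Snap25 were under 16 in all 4 arrays.

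Beyond the lists, 310 probe sets (1.95%) had an unadjusted p under 0.01 in limma and no overlap between the sexes, 206 with testis higher (1.3%) and 104 with testis lower (0.655%). The split leaned to testis mostly in dim probe sets. Of the 310, 222 had a mean under 50, and 163 of those were higher in testis. Where both group means were at least 50, 25 were higher and 28 lower. At an unadjusted p under 0.05, 770 probe sets (4.85%) were higher and 466 (2.94%) lower as deposited, so that 62.3% of these lay on the testis side. Quantile normalization gave 565 higher and 562 lower, or 50.1% on the testis side. Over all probe sets the median log2 difference was 0.04, and the typical 95% interval reached 0.53 to either side of the estimate.

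Of the 15 named genes with the largest positive differences among the 310, Sry came first. Kcns1, a potassium channel subunit, read 31.1 and 44.9 in testis and 2.5 and 7.6 in ovary. Mad1l1, part of the spindle checkpoint, read 32.4 and 27.7 against 2.4 and 3.0, with an adjusted p of 0.0837 in limma. In the other 10 arrays Mad1l1 lay between 8.4 and 26.6, so the E13 testes were the highest and the E13 ovaries the lowest of the series. Its brighter probe set differed by -0.03. Apod, a lipid-binding apolipoprotein, read 86.0 and 69.8 in testis and 26.5 and 18.9 in ovary (1.28, 95% interval 0.79 to 1.77). Ccne2, a cyclin of DNA replication onset, read 136.2 and 85.9 against 34.4 and 43.2 (1.19). Ccn1, a matricellular protein, read 69.3 and 50.4 against 9.7 and 22.6 (1.26). The rest were Naaladl1, Art1, Enah, Cyp2d4, Pdzd2, Fgf10, Aqp5, Prm3 and Fxyd4, with log2 differences between 1.18 and 1.30.

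On the other side, Xist and Angel2 led. Klk1, a kallikrein protease, read 82.3 and 57.4 in testis and 205.8 and 231.5 in ovary, with a log2 difference of -1.46 (95% interval -2.05 to -0.87, adjusted p = 0.341 in limma). Its E13 ovary readings were the highest 2 of the series. Zfyve27, a membrane-trafficking protein, read 11.2 and 8.5 against 66.9 and 55.6 (-1.58), and no other array was under 31.5. Commd7 read 15.6 and 29.2 in testis and 97.2 and 94.0 in ovary (-1.56). Asl, the urea-cycle enzyme argininosuccinate lyase, read 17.2 and 14.4 against 54.0 and 61.5 (-1.21). The brighter probe sets of Commd7 and Asl overlapped between the sexes and gave -0.18 and -0.16. Tmem163, Zc3h10, Fst, Zzef1, Mus81, Zfp668, Podxl2, Bmp1 and Cnga3 made up the rest, from -1.57 to -1.12. Of these 30 genes, 9 had more than 1 probe set, and in all 9 the other probe sets had an unadjusted p of 0.05 or more.

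**Figure D4:**
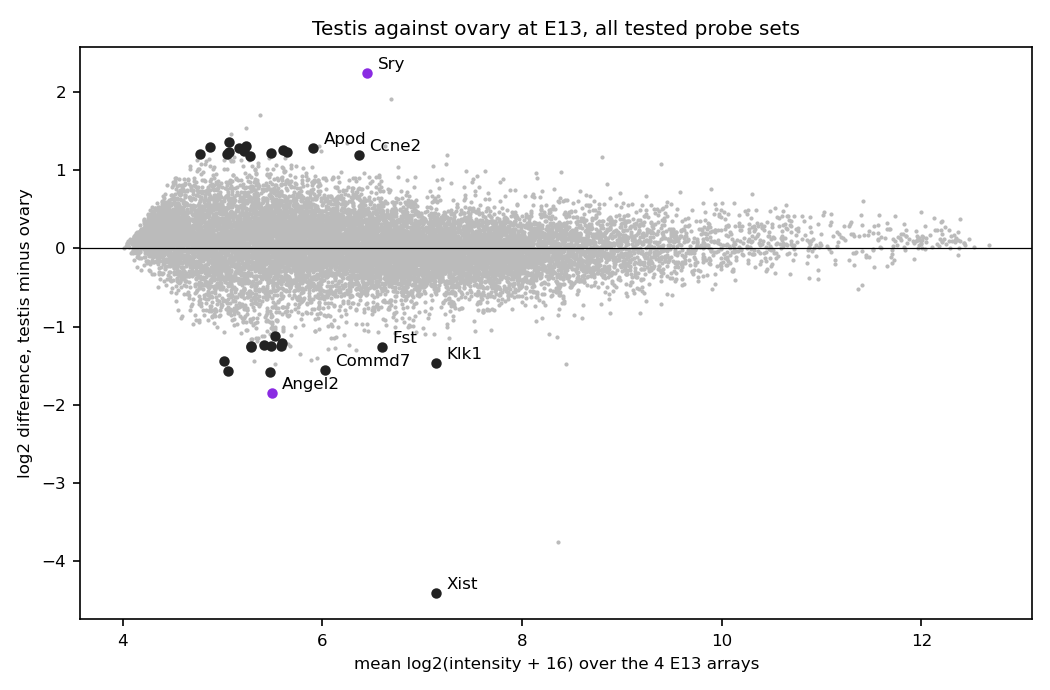
Log2 difference (testis minus ovary, y axis) against mean log2(intensity + 16) over the 4 E13 arrays (x axis) for all 15866 probe sets. Violet points are Sry (2.24) and Angel2 (-1.85), which passed, and black points are the other 28 named leading genes, most of which sit at low intensity.

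The leading probe sets often singled out the E13 testis against the whole series. Among the 206 with testis higher, both E13 testis arrays lay above all other 12 arrays for 86 (41.7%, against 3.12% of all probe sets), and both E13 ovary arrays lay below all others for 26 (12.6%, against 1.51%). Among the 104 with testis lower, the E13 testes were below all others for 51 (49.0%, against 1.42%), and the E13 ovaries above all others for 18 (17.3%, against 1.61%). The rule that chose the leading probe sets uses the same 4 arrays, so these shares are a description. Zfyve27, Tmem163, Zc3h10, Zzef1, Podxl2, Bmp1 and Asl shared with Angel2 a level in the E13 testes below that of every other array, cultured testis included. Bmp1 and Asl are given here by their dimmer probe sets, and the brighter ones differed by -0.57 and -0.16 at E13.

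The E14 and E16 arrays entered the choice of these probe sets through the shared estimate of the spread, though not through the size or direction of the E13 difference. At E14 and E16, 158 of the 206 with testis higher (76.7%) and 170 (82.5%) kept testis above ovary on the mean, against 53.2% and 57.6% of all probe sets. Within the 2 arrays of 1 chip batch at each age the shares were 58.7% and 75.7%, against 46.8% and 55.9%. At E16 that pair includes the ovary array whose Xist reading, 12.8, was at odds with its label. Of the 104 with testis lower, 67.3% were also lower at E14 and at E16, against 46.8% and 42.4% of all probe sets, and within 1 chip batch 64.4% and 58.7% were, against 53.2% and 44.1%. For the first set the median log2 difference was 0.83 at E13, 0.19 at E14 and 0.30 at E16. For the second it was -0.80 at E13 and -0.16 at both later ages. The probe sets were chosen by their E13 values, which raises the size of the E13 medians. The smaller later medians therefore cannot be read as a change with age.

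At E14 22 probe sets (0.139%) passed and at E16 276 (1.74%). Of the 310 leading probe sets, 19 were among them with the same direction as at E13. At E16 9 of the 206 with testis higher passed in that direction, where 1.01% of all probe sets did. Of the 104 with testis lower 10 did so, where 0.725% of all probe sets passed with testis lower. Cyp1b1, a cytochrome P450 that oxidises steroids and retinoids, read 267.4 and 271.6 in E13 testis and 487.4 and 538.3 in E13 ovary. Its log2 difference was -0.89 at E13, -2.04 at E14 and -1.97 at E16. Fst went from -1.26 to -2.15 and -2.63. Etnk1, ethanolamine kinase, read 377.4 and 303.6 against 580.2 and 644.2 (-0.82, then -1.37 and -1.03). Apoc4, Ly6l, Psmb9, Ext1, Parp9 and Commd7 were the other named genes with testis lower, Commd7 by its dimmer probe set.

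With testis higher, Gucy1b1, a subunit of the nitric oxide receptor, read 240.7 and 223.9 in E13 testis and 138.3 and 100.4 in E13 ovary (0.89, then 1.05 and 1.05). Cxcl12, a chemokine that guides germ cells, read 116.5 and 102.8 against 51.4 and 63.6 (0.78, then 0.44 and 2.26). Pln, a regulator of the calcium pump of muscle, read 37.5 and 50.8 against 17.1 and 18.8 (0.82, then 1.80 and 1.09). Apod stayed at 1.22 and 1.32. Aplp2, Ppfia4, Gja5 and Nek9 completed the named genes, and 2 further probe sets had no gene symbol. Nek9 and Gja5 had log2 differences of -0.08 and -0.29 at E14.

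**Figure D5:**
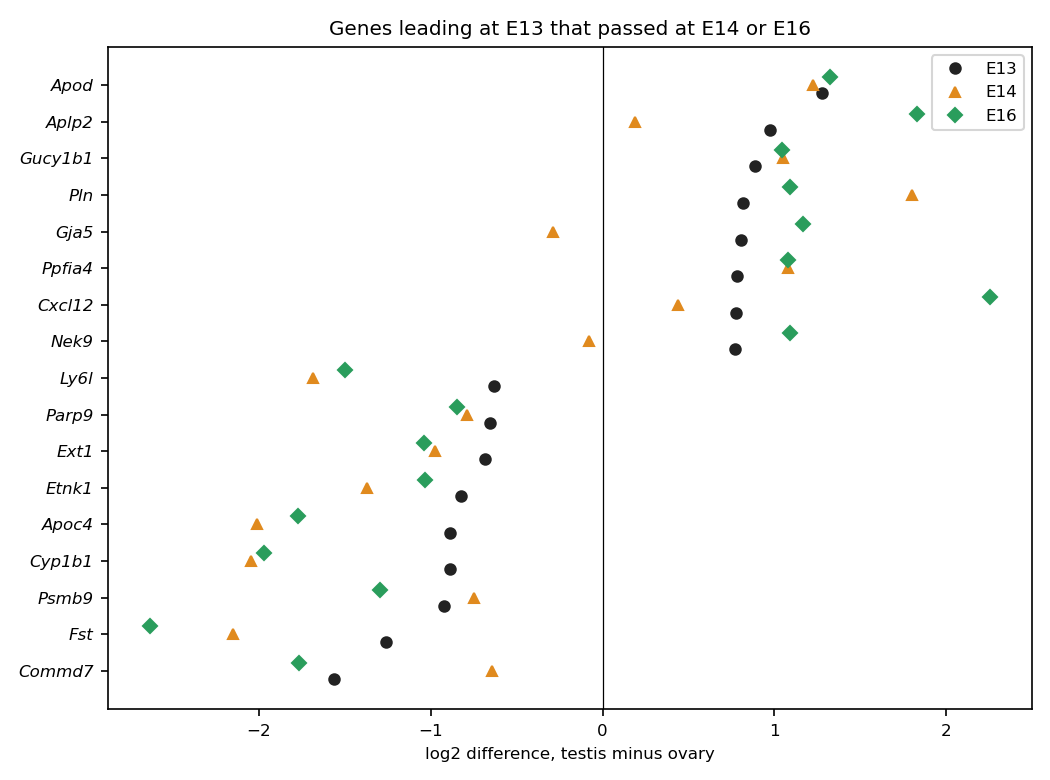
Log2 difference (testis minus ovary, x axis) at E13 (black circles), E14 (orange triangles) and E16 (green diamonds) for the 17 named genes that led at E13 and passed at E14 or E16 in the same direction. Fst moves from -1.26 to -2.63 and Cyp1b1 from -0.89 to -1.97, while Apod is at 1.28, 1.22 and 1.32.

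The change of the sex difference from E13 to E14 was tested directly. In limma 0 of 15866 probe sets passed, with 620 (3.91%) at an unadjusted p under 0.05. Among the named genes the estimate was largest for Amh, at 3.15 ± 0.42 (SE), with an adjusted p of 0.0928. For Angel2 the change was 2.13 ± 0.29 and for the dim Mad1l1 probe set -1.82 ± 0.25, at the same adjusted p. For Sry it was -1.50 ± 0.33 (adjusted p = 0.731 in limma). Under a chip batch term Amh, Angel2 and Mad1l1 passed, and among probe sets with a mean of at least 50 Amh and Angel2 passed. From E13 to E16 the sex difference shifted for 23 probe sets (0.145%), Amh and Sry among them.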

How the data were processed

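RNA extracted with Trizol from pooled gonads was labelled with biotin and hybridised by the standard Affymetrix procedures, per the labels' protocols. The authors deposited intensity values on a linear scale, 1 per probe set and array, and the values show each array scaled to a trimmed mean of 125. The software that summarised the probes is not given in the sources used here. Names came from the platform annotation, with 1 gene symbol for 12783 of the 15866 tested probe sets, more than 1 for 312 and no symbol for 2771. Only 1-symbol probe sets were named, and 12748 identifiers were found in a RefSeq table of GRCr8.

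Values were taken as log2(intensity + 16), an offset that understates changes of dim genes, without further normalization. Using limma 3.58.1 (R 4.3.3), 7 groups were modelled over 14 arrays, and p-values were adjusted by Benjamini-Hochberg over 15866 probe sets. Having 2 arrays a group limits the precision. Intervals are 95%. P-values rest on the spread between the 2 arrays of a group, estimated over all 7 groups. That spread holds differences between pools and, in every group but E13 ovary, between chip periods. Chip periods and batches were read from the form of the array labels. The fit was tested on simulated data. Genes were named by rule: all that passed, the 15 largest differences a direction among those with an unadjusted p under 0.01 and no overlap, every member of the testis, ovary, early-gonad and sex-linked lists, and up to 3 per direction of each other list. Defining cell type markers were named too, as were leading genes that passed at E14 or E16, which were chosen after their values were seen. In lists, genes with more than 1 probe set are represented by that of highest mean. The members and the 22 lists (495 symbols, 372 measured) were chosen with earlier results of these data known. Of listed genes, Sox9, Dhh, Foxl2, Rspo1, Ddx4 and Pou5f1 are among those not analysed here. Alternatives were another offset, quantile normalization, a filter on dim probe sets, chip, replicate and weight terms, and leaving out arrays.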

Additional observations from a re-analysis of the deposited data

Results flagged for a closer look

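Between E13 and E16 the sex difference shifted past limma's adjusted threshold for 23 probe sets (0.145%), 10 of them named genes. On the log2 scale the difference between the sexes moved towards testis by 6.09 for Cyp17a1, 5.25 for Hsd3b1 and 3.30 for Star, which belong to steroid synthesis. It moved the same way by 3.92 for Amh, 3.00 for Tsx, 2.39 for Jag1 and 2.20 for Nppc. Towards ovary it moved by -3.12 for Rbp4, a retinol carrier, -2.12 for Sry and -1.87 for Amhr2. These genes stand out because the same contrast gave different sizes at the 2 ages.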

How the results depend on the processing

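The 2 probe sets that passed at E13, Sry and Angel2, both passed with array weights (3 passed, with Mad1l1 added), a random chip batch block, trend and robust settings, and quantile normalization. A chip period block gave 2, Sry and Col6a2, with Angel2 at an adjusted p of 0.0615. An offset of 1 gave 2, Angel2 and Mad1l1, with Sry at 0.092. An offset of 64 gave 1, Sry, and a mean intensity of at least 50 gave 1, Angel2, since Sry was filtered out. With only the 4 E13 arrays the count was 0, and without the 4 arrays whose Xist level was at odds with their labels it was also 0. In these fits 1729 and 1440 probe sets had an unadjusted p under 0.05. Leaving out single arrays gave 0 (any E13 array) to 2 (any E14 array). The cause was not tested. In all 20 other settings neither gene changed sign, nor did any of the 30 leading genes. Of the 185 other listed genes, 53 did in at least 1. The leading genes were chosen for E13 arrays without overlap, so leaving out an E13 array cannot change their sign. The 2 counts therefore do not compare how stable the genes are. For the change from E13 to E14, where 0 passed, the count was 3 with a random chip batch block, 2 at a mean intensity of at least 50, 2 with an offset of 1, and 0 to 1 when single arrays were left out. Shares in the same direction moved within 1 chip batch for probe sets higher in testis, to 58.7% at E14 and 75.7% at E16. The E16 pair includes the ovary array whose Xist level was at odds with its label.

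Same-numbered replicates did not deviate together at E13 (r = -0.02 across probe sets), while 15 of 21 pairs of groups were over 0.1, all those without E13 ovary. In every group but E13 ovary, replicate 2 lay in chip period 1, so number and chip period go together there. As the labels name no shared litter and not every pair was over 0.1, the fit has no pairing. Chip batch and chip period, read from the form of the labels, entered only the alternative fits. A replicate block gave 2 at E13 (1660 at an unadjusted p under 0.05, against 1236 without it), and 0 with only the 4 E13 arrays, which was added after seeing the data. The 95% interval of a typical probe set reached 0.53 to either side, which is the precision that 2 arrays a group gave.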
